A study of Mus musculus with 7 samples.

Results

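The binding of CTCF and of the cohesin subunit Rad21 was described here around 10 genes of blood clotting, Fga, Fgb, Fgg, F2, F5, F7, F10, F11, Plg and Serpinc1, in female mouse liver. The genes were taken by name from 21418 autosomal protein-coding genes of the annotation, and each was extended by 50 kb on either side, with the neighbouring fibrinogen genes Fga, Fgb and Fgg joined into 1 span. Every peak that overlapped one of the resulting 8 spans was kept, which gave 82 of 68667 CTCF peaks and 79 of 68656 Rad21 peaks. The spans of F7 and F10 overlap and share 9 CTCF and 11 Rad21 peaks, which were counted once in totals. The study examined chromatin of female Crl:CD1(ICR) mice, an outbred strain, at 8 weeks of age. Liver nuclei were crosslinked with formaldehyde and immunoprecipitated with an antibody to CTCF in 4 libraries or to Rad21 in 3 libraries. The data used here were 1 list of peaks for each protein, called on the pooled libraries of that antibody, so no value for a single mouse was used and the spread between mice cannot be given. Nuclei of whole liver were used, and a peak cannot be assigned to hepatocytes or to another cell type. The lists hold no RNA or marker values against which the tissue label could be checked, and no read depth.

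Fibrinogen, made of the chains encoded by Fga, Fgb and Fgg, is the soluble plasma protein that thrombin turns into fibrin, the mesh of a clot. Thrombin is made from prothrombin in a cascade of plasma proteases and cofactors, antithrombin holds the cascade in check, and plasmin dissolves the clot. Hepatocytes are the main source of these proteins, and several of their genes respond to inflammation. CTCF is a zinc finger protein that binds a long, non-palindromic motif, and cohesin is a ring-shaped complex that extrudes chromatin loops and is often held at CTCF sites that point toward each other. Cohesin sites without CTCF are in liver often found at enhancers and promoters bound by tissue-specific factors.

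In the following, a peak that overlapped a peak of the other list by at least 1 bp was classed as CAC (cohesin-and-CTCF), a CTCF peak without Rad21 as Lone CTCF, and a Rad21 peak without CTCF as CNC (cohesin-non-CTCF). Fold enrichment is the value of the authors' peak caller at the summit over local background, and it was compared only within a list. Percentiles give the rank of that value among all peaks of the same list. Positions are in mm9, and distances are from the summit to the 5′ end of the nearest member gene, negative upstream of it. Sequences of 3 kinds are shown beside the peaks. The first were the CTCF motifs of the nearest CAC peaks on each side of a gene, shown for the loci where these motifs pointed toward each other, together with the motif under the strongest Rad21 peak of the F5 span. Each is given 5′ to 3′ on the strand of the motif, with the motif in capitals, 15 bases of context on each side, and the coordinates of the motif. None of these stretches overlaps an annotated exon.
Fibrinogen genes, side of Fgg (chr3:82806317-82806336, plus strand): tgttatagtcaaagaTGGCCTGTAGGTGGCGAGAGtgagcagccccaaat
Fibrinogen genes, side of Fgb (chr3:82857819-82857838, minus strand): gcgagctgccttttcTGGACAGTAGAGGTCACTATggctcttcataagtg
F2, downstream side (chr2:91442723-91442742, plus strand): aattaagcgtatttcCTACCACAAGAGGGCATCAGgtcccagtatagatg
F2, upstream side (chr2:91487071-91487090, minus strand): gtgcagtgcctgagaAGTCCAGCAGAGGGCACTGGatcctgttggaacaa
F5, upstream side (chr1:166078195-166078214, plus strand): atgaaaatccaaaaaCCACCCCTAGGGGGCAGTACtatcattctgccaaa
F5, downstream side (chr1:166245612-166245631, minus strand): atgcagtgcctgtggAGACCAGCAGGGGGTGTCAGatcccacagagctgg
F7 and F10, upstream side (chr8:12988888-12988907, plus strand): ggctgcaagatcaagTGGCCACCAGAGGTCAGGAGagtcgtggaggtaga
F7 and F10, downstream side (chr8:13093306-13093325, minus strand): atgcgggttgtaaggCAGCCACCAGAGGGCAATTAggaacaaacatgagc
F5, strongest Rad21 peak (chr1:166068958-166068977, minus strand): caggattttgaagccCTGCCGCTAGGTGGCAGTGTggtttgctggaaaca

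The second kind were the 150 bases just before the annotated 5′ end of 5 genes that had a peak there, shown on the strand of the gene. Capitals mark matches on either strand to the letters TTGCNNAA (C/EBP), TGTTTNC (FOXA) or CAAAGNCCA (HNF4A), which stand for transcription factors known from liver. No matches overlapped within these windows, and F2 is shown as a gene without any.
Fga (chr3:82829925-82830074, plus strand): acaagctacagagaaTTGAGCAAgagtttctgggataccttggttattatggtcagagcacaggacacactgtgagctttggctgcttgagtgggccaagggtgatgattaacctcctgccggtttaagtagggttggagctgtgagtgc
Plg (chr17:12571325-12571474, plus strand): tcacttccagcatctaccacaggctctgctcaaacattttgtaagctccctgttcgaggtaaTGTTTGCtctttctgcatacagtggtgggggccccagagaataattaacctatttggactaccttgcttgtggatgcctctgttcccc
F11 (chr8:46347386-46347535, minus strand): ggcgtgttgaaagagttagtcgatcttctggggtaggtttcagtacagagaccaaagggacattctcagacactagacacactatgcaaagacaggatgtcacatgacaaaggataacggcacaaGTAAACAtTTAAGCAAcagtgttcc
Serpinc1 (chr1:162908587-162908736, plus strand): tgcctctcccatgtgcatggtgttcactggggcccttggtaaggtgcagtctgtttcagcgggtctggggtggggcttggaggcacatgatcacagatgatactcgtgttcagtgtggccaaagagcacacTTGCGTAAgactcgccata
F2 (chr2:91476572-91476721, minus strand): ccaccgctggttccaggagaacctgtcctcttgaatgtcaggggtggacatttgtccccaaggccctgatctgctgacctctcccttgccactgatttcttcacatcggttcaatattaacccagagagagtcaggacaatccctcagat

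The third kind were the 121 bases centred on the summits of CNC peaks outside exons, of which 2 with matches to the FOXA or C/EBP letters are shown as examples.
CNC peak between Fga and Fgb (chr3:82843047-82843167, plus strand): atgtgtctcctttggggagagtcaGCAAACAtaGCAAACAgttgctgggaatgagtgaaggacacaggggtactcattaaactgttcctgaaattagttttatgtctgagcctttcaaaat
CNC peak in Serpinc1 (chr1:162911033-162911153, plus strand): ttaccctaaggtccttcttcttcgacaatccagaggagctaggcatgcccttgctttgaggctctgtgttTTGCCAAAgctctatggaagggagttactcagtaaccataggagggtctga

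Peaks of both proteins were dense around the clotting genes, and CNC peaks more so. Of the 82 CTCF peaks, 54 were CAC and 28 were Lone CTCF. Of the 79 Rad21 peaks, 52 were CAC and 27 were CNC. The share of CNC was 34.2% of Rad21 peaks (95% Wilson interval 24.7 to 45.2%, counting error only), and it was 26.6% over all autosomal Rad21 peaks. The share of Lone CTCF was 34.1% of CTCF peaks (24.8 to 44.9%), beside 26.2% over all autosomes. Both intervals include the autosomal share, and under other settings some did and some did not. With flanks of 25 kb, CNC made up 42.1% (30.2 to 55.0%) and Lone CTCF 41.4% (29.6 to 54.2%), and both intervals lay above these shares. With flanks of 100 kb, both intervals included them (CNC 31.2%, 23.3 to 40.4%, and Lone CTCF 32.1%, 24.2 to 41.3%). With a minimum −log10 q of 10, the interval for CNC (36.7%, 24.7 to 50.7%) lay above 19.5% over all autosomes. That for Lone CTCF (34.7%, 22.9 to 48.7%) included 28.6%. With a minimum fold enrichment of 5, the interval for Lone CTCF (47.4%, 32.5 to 62.7%) lay above 29.7%. That for CNC (23.1%, 11.03 to 42.05%) included 16.2%. Both thresholds were applied to both lists before classing, here and over all autosomes. A CAC peak with a partner below them thus became Lone CTCF or CNC. With −log10 q of 10, 18 peaks were CNC, of which 11 were CNC in the full lists. With summits required to lie within 100 bp for CAC, the interval for Lone CTCF (51.2%, 40.6 to 61.7%) lay above 39.2%. That for CNC (49.4%, 38.6 to 60.2%) included 39.4%. Per length, the spans held a median of 3.11 CNC peaks per 100 kb, from 1.42 for Plg to 4.56 for F7, and the median over all autosomal genes with the same flanks was 0.752. All 10 genes had a CNC peak in their own span, beside 56.9% of all genes. The other classes were also dense, with a median of 9.09 CTCF peaks and 8.07 Rad21 peaks per 100 kb against 5.26 and 4.89 for all genes. Since the genes were picked by name and share a tissue, these values describe the list and were not tested. The intervals treat peaks as independent, although peaks cluster in 8 spans, so setting them beside the autosomal share is no test.

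**Figure D1:**
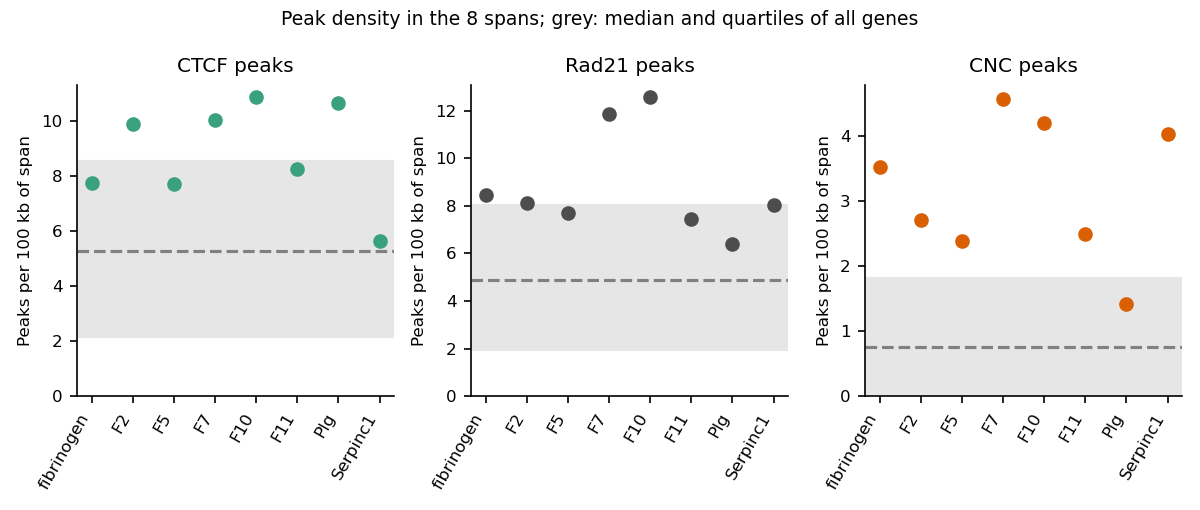
Peaks per 100 kb of span for CTCF, Rad21 and CNC peaks in the 8 spans (points), with the median (dashed line) and the quartiles (grey band) of all 21418 autosomal protein-coding genes extended in the same way. For CNC peaks 7 of 8 spans lie above the upper quartile of 1.82, and Plg, at 1.42, lies within the band; for Rad21, F7 at 11.8 and F10 at 12.6 stand highest.

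Peaks without a partner in the other list stood lower in their lists than CAC peaks, here as over all autosomes. The median percentile was 51.2 for CAC peaks of CTCF, 49.0 for CAC peaks of Rad21, 19.4 for Lone CTCF and 9.84 for CNC peaks. Over all classes it was 31.7 for CTCF and 35.5 for Rad21. When peaks were ranked by −log10 q, these became 41.7 (95% interval 24.0 to 51.1, which includes 50) and 41.0 (36.4 to 47.5). The median fold enrichment was 4.17 for CTCF and 4.02 for Rad21, and the median over all autosomal peaks was 6.03 and 4.91, respectively. CAC peaks reached a median of 6.23 in the CTCF list and 4.86 in the Rad21 list, beside 8.41 and 6.14 over all autosomes. Lone CTCF peaks had a median of 3.48, beside 3.85. CNC peaks had a median of 2.95, from 2.38 to 5.05, with 3.48 over all autosomal CNC peaks. Of the 27, 1 ranked above the 50th percentile of the Rad21 list. All autosomal CNC peaks also stood low, with an upper quartile of 4.15, below the median of 4.91 over all autosomal Rad21 peaks. The median −log10 q of the 27 CNC peaks, 8.48, was nevertheless above the 6.73 of all autosomal CNC peaks. The 27 were also wider, with a median of 395 bp against 303 bp. The rule keeps only peaks within 50 kb of a gene, so distances to transcription start sites (TSSs) were set beside those of the 15200 autosomal CNC peaks within 50 kb of any protein-coding gene. The median distance from the summit to the nearest TSS was 2.55 kb for the 27 CNC peaks and 13.2 kb for those, with quartiles of 3.10 and 33.1 kb. For CAC peaks of the Rad21 list, chosen in the same way, it was 5.37 kb against 7.63 kb.

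**Figure D2:**
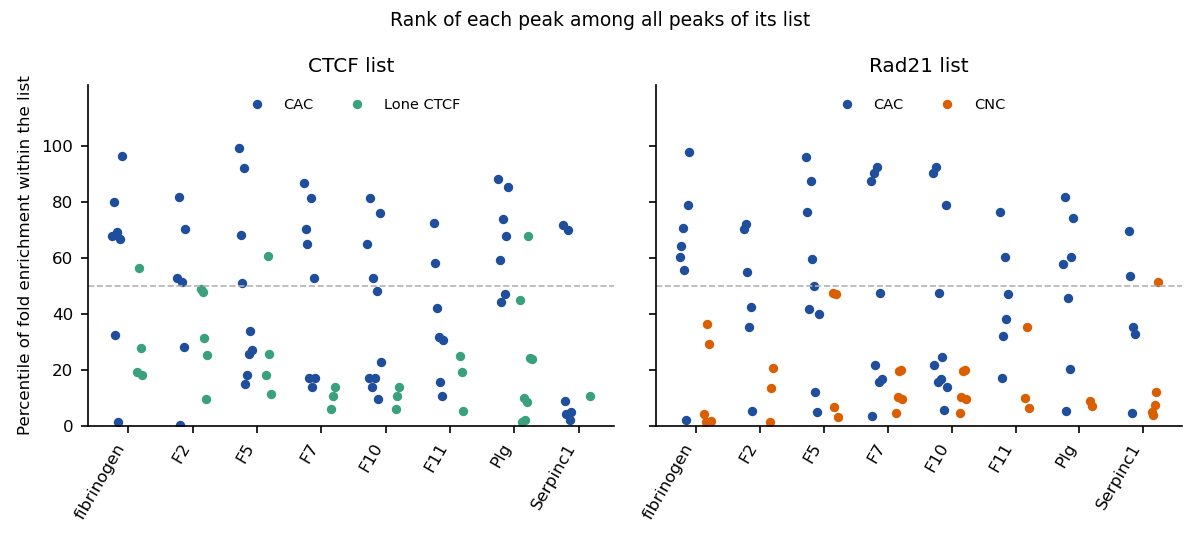
Percentile of fold enrichment within the list for each peak of the 8 spans, in the CTCF list (left) and the Rad21 list (right), by span and coloured by class; peaks shared by F7 and F10 appear in both columns. The highest CAC peaks stood at the 99.2nd percentile for CTCF and the 98.0th for Rad21, and all CNC peaks except that at 51.6 lie below the dashed line at 50.

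At the TSSs, CNC peaks were found at more of the genes than CAC peaks. A CNC peak overlapped the region within 1 kb of an annotated TSS in 5 of the 10 genes, Fga, F2, F10, F11 and Serpinc1, and the share of all genes with one was 12%. A CAC peak of the Rad21 list was found at the TSS of 2 genes, F5 and F7, beside 50.7% of all genes. Plg, Fgb and Fgg had no Rad21 peak there. Thus 7 of 10 genes had a Rad21 peak of either class at a TSS, beside 54.4% of all genes, and 4 of 10 a CTCF peak (CAC at F5 and F7, Lone CTCF at F11 and Plg), beside 54.9%. The 8 CNC peaks at these TSSs had fold enrichments of 2.69 to 3.76, which placed them between the 4.80th and the 29.5th percentile of the Rad21 list. Within the transcribed region, 8 of 10 genes held a CNC peak, all except Fgb and F7 (22.7% of all genes), and 9 of 10 held a Rad21 peak of either class, all except Fgb (63.2%). These peaks were weak, and the counts depended on the threshold for a peak. With a minimum −log10 q of 10, 3 of the 10 genes had a CNC peak at a TSS, beside 7.66% of all genes. With a minimum fold enrichment of 5 none had, beside 6.02%, and none had a Rad21 peak of either class there, beside 31.9%. At that setting 3 genes, F5, F7 and Plg, had a CTCF peak at a TSS, beside 37.8%. The Rad21 peaks at F5 and F7, with 4.35 and 4.76, fell just below the threshold. The same threshold was used for both lists, although fold enrichment was compared only within a list. The summits of the CAC pairs at F5 and F7 were over 100 bp apart, and the share of CNC was 49.4%, beside 39.4% over all autosomal Rad21 peaks, when summits had to lie within 100 bp for CAC.

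**Figure D3:**
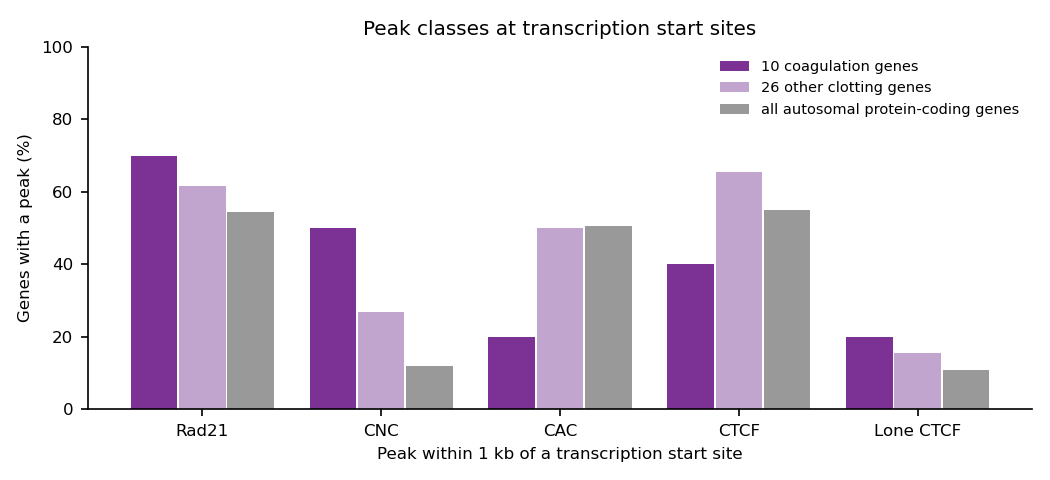
Share of genes with a peak within 1 kb of an annotated TSS, by class, for the 10 clotting genes, 26 other genes of clotting and fibrinolysis, and all autosomal protein-coding genes. CNC peaks were found at 50%, 26.9% and 12% of genes in that order, and CAC peaks at 20%, 50% and 50.7%.

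The fibrinogen genes lie side by side on chromosome 3, with Fgg (chr3:82811781-82818975) and Fga (chr3:82830075-82838036) on the plus strand and Fgb (chr3:82846169-82853725) on the minus strand. Within the 3 transcribed regions and the gaps of 11.1 kb and 8.13 kb between them, no peak had a fold enrichment above 7.21. The Rad21 list held 4 CNC peaks and 1 CAC peak in this interval. The CNC peak over the first exon of Fga, which encodes the alpha chain, had a fold enrichment of 3.76 (chr3:82829615-82830346), with its summit 0.082 kb into the gene. A CNC peak in an intron of Fgg, the gene of the gamma chain, reached 2.40 at 2.55 kb. Between Fgg and Fga stood the strongest of them, with 4.10 at -5.83 kb from Fga, and between Fga and Fgb another with 2.44. The sequence around the last summit, shown above, holds 2 matches to the FOXA letters. Fgb, the gene of the beta chain, had no peak at its TSS, and its transcribed region carried only a Lone CTCF peak with a fold enrichment of 7.21 over an exon.

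CAC peaks stood outside the fibrinogen genes on both sides. Upstream of Fgg, 4 of them lay within 22.8 kb, with CTCF fold enrichments of 10.4, 15.03, 4.26 and 10.9 from far to near and Rad21 fold enrichments of 5.90, 6.42, 7.66 and 5.44. That at -8.67 kb thus had the lowest CTCF value but the highest Rad21 value. A further CNC peak of 2.66 lay at -4.58 kb, between the last of them and Fgg. Beyond Fgb, a CAC peak with 10.01 for CTCF and 10.2 for Rad21 lay at -4.13 kb, and the strongest of the span (chr3:82884636-82885130) at -31.2 kb had 23.2 for CTCF and 22.6 for Rad21, at the 96.4th and 98.0th percentiles. The nearest CAC peaks with a CTCF motif were those at -5.46 kb from Fgg and -4.13 kb from Fgb. Their summits were 51.5 kb apart, their motifs pointed inward, and no protein-coding gene other than the 3 fibrinogen genes lay between them. All 5 CNC peaks of the span fell between these sites, beside 1 CAC and 2 Lone CTCF peaks of the CTCF list.

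**Figure D4:**
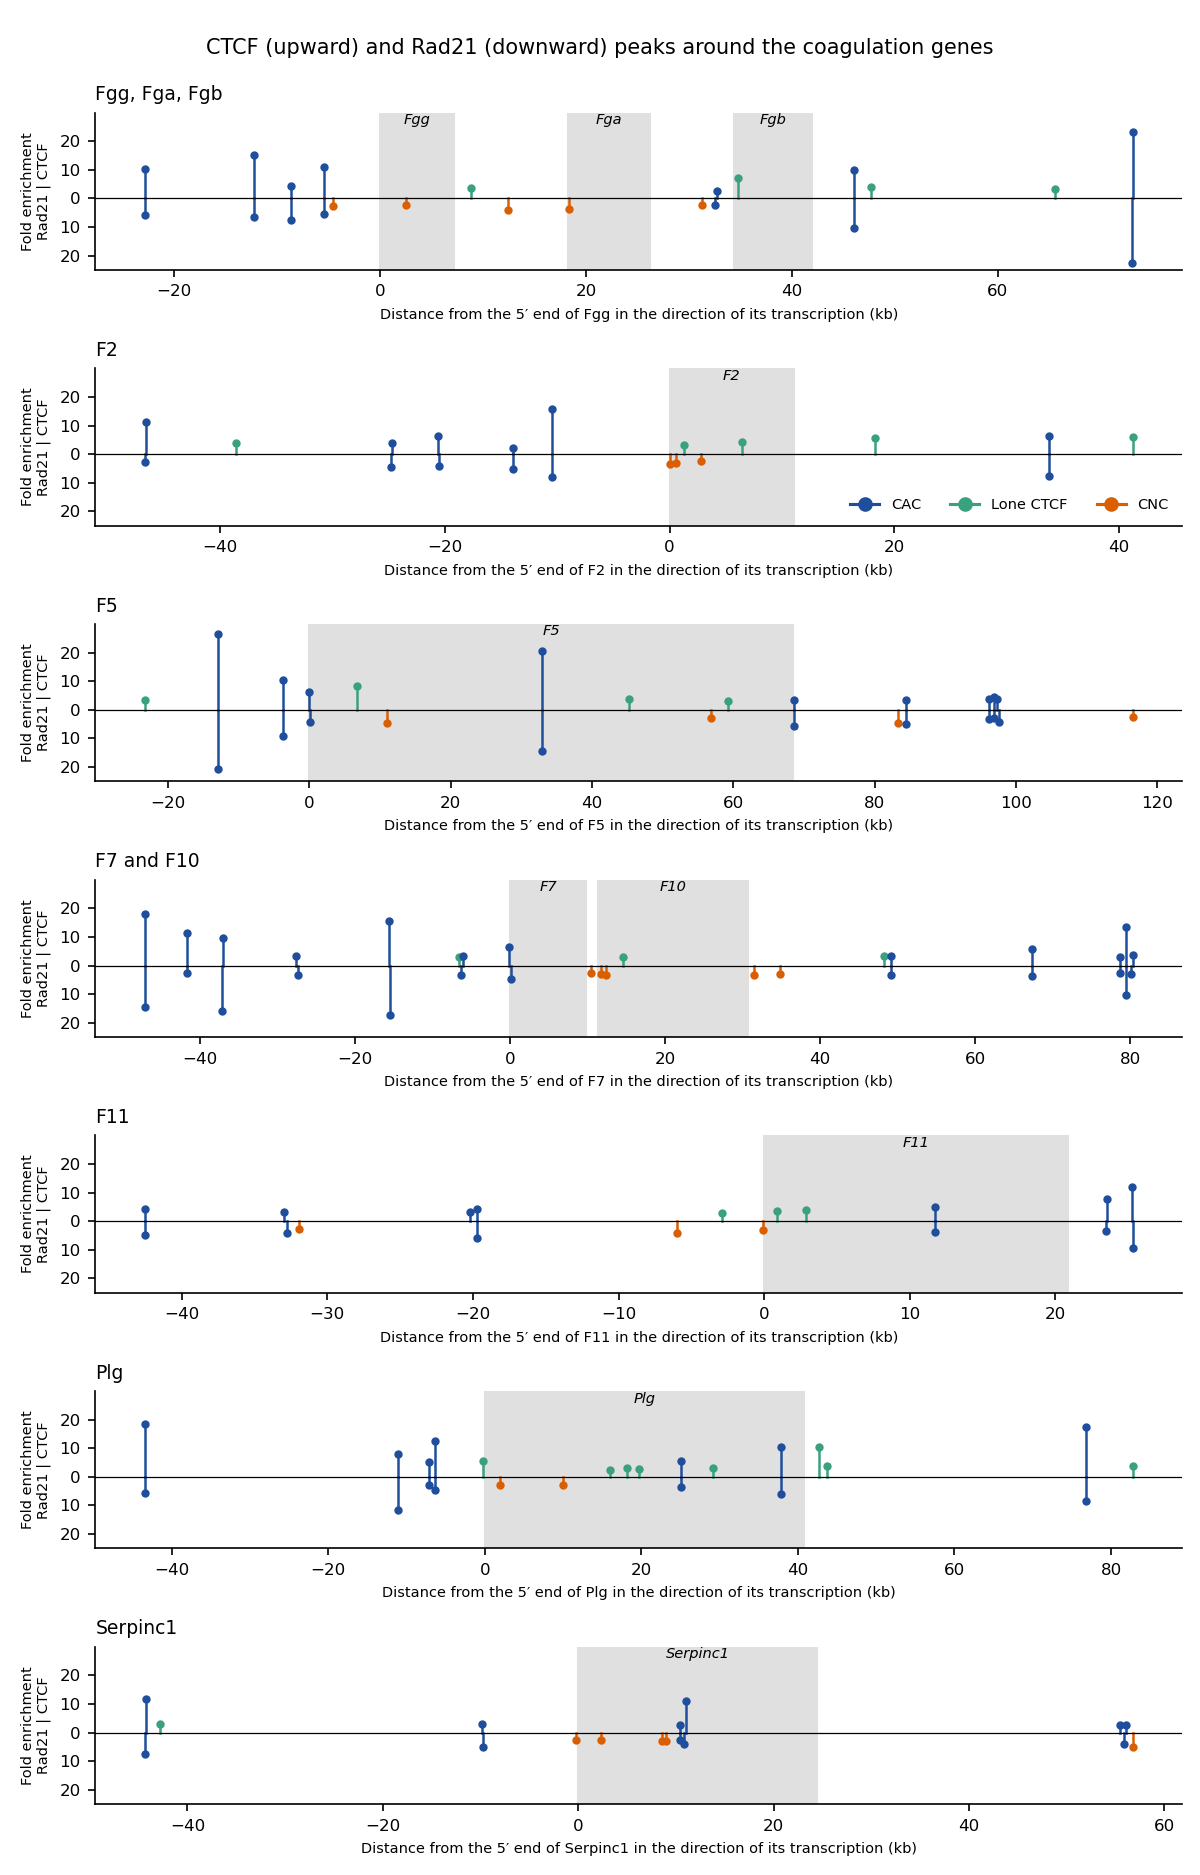
Peaks around the clotting genes by distance from the 5′ end of the named gene (kb, in the direction of its transcription), with fold enrichment of CTCF upward and of Rad21 downward, coloured by class; grey boxes are the transcribed regions. The CAC peaks reach 26.6 for CTCF and 22.6 for Rad21, most of the strongest outside the clotting genes, while no CNC peak exceeds 5.05.

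F2 (chr2:91465477-91476571, minus strand) encodes prothrombin. It carried 3 CNC peaks and no CAC peak within its transcribed region. The summit of the strongest, with a fold enrichment of 3.41, was 0.072 kb into the gene over an exon, another with 3.11 lay at 0.614 kb over an exon, and the weakest, with 2.38, lay in an intron at 2.77 kb. Lone CTCF peaks of 3.05 and 4.13 also lay inside the gene, at 1.29 kb over an exon and at 6.48 kb in an intron. The strongest CTCF peak of the span was an intronic CAC site in the neighbouring gene Zfp408 at -10.5 kb, with 15.7 for CTCF and 7.97 for Rad21, both the highest of the span. Its motif pointed toward that of a CAC peak in Ckap5 at 33.8 kb (6.49 and 7.58). These summits were 44.3 kb apart, the closest pair of the 8 spans, with 3 CNC and 3 Lone CTCF peaks and no CAC peak between them.

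Factor V, a cofactor of the protease that activates prothrombin, is encoded by F5 (chr1:166081969-166150408, plus strand), the longest of the genes. Its TSS was covered by a CAC peak, with 6.20 for CTCF and 4.35 for Rad21 and summits 153 bp apart. The strongest CTCF peak of all spans stood at -12.9 kb in an intron of Selp, with 26.6 for CTCF (99.2nd percentile) and 20.6 for Rad21 (96.3rd percentile). A CTCF motif lay within 100 bp of its Rad21 summit and only in part within 100 bp of its CTCF summit, so that the CTCF peak was not counted as having one. A second strong CAC peak lay inside an intron of F5 at 32.9 kb, with 20.6 and 14.3. The introns of F5 also held CNC peaks of 4.75 at 11.03 kb and 2.81 at 56.8 kb, and Lone CTCF peaks of 8.28, 3.85 and 3.16. The end of the gene was overlapped by a CAC peak of the Rad21 list with 5.83, whose CTCF partner, with 3.30, began just beyond the gene. The nearest CAC peaks with a motif lay 3.78 kb upstream and 95.2 kb downstream of the gene, with inward motifs and summits 167.4 kb apart.

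F7 (chr8:13026034-13035809) and F10 (chr8:13037308-13056676) encode the proteases factor VII, which starts the cascade with tissue factor, and factor X, which activates prothrombin. They follow each other on the plus strand of chromosome 8, separated by 1.5 kb. Their 5′ ends differed in peak class. At the TSS of F7 a CAC peak was found with 6.51 for CTCF and 4.76 for Rad21, whose summits were 286 bp apart, the former before and the latter after the start of the gene. Near the 5′ end of F10 there were 3 CNC peaks, with fold enrichments of 2.69 at -0.835 kb, 2.98 at 0.444 kb in a UTR and 3.35 at 1.09 kb in an intron, and no CTCF peak within 1 kb of a TSS. F10 further held a Lone CTCF peak of 3.11 in an intron at 3.23 kb. Both CNC peaks beyond F10, of 3.37 and 2.95, lay between it and the next gene, Proz, the second of them at the TSS of Proz. The strongest peaks of these spans were CAC sites in Mcf2l, upstream of F7, with the highest CTCF value, 18.0, at -47.1 kb from F7 and the highest Rad21 value, 17.4, at -15.5 kb. On the other side, a CAC peak before Cul4a, at 68.2 kb from F10, had 13.4 for CTCF and 10.2 for Rad21. The nearest CAC peaks with a motif were the same for both genes, in Mcf2l and in Pcid2, with inward motifs and summits 104.4 kb apart.

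F11 (chr8:46326524-46347385, minus strand) encodes factor XI, a protease of the contact pathway. A CNC peak with a fold enrichment of 2.96 had its summit at -0.079 kb, and a Lone CTCF peak of 3.49 lay 0.881 kb inside the gene, so that both proteins had a peak within 1 kb of the TSS but not at the same place. A second CNC peak, of 4.02, lay at -5.98 kb. The gene body held a further Lone CTCF peak of 3.78 and an intronic CAC peak with 5.08 for CTCF and 3.86 for Rad21. The strongest CAC peak lay downstream, at 25.3 kb, with 11.99 and 9.34. The nearest CAC peaks with a motif, on either side of F11, pointed away from each other, and their summits were 106.7 kb apart.

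Plg (chr17:12571475-12612250, plus strand) encodes plasminogen, the precursor of plasmin. Among the 10 genes only Plg had CTCF but no Rad21 at the TSS, as a Lone CTCF peak with a fold enrichment of 5.40 and a summit at -0.156 kb. Its span had the most Lone CTCF peaks, 8 of 15 CTCF peaks, and the fewest CNC peaks, 2. Inside the gene, the Lone CTCF peaks at 16.1, 18.1, 19.7 and 29.1 kb were weak, from 2.52 to 3.06, and the CNC peaks at 1.91 and 10.01 kb, both in introns, reached 2.92 and 2.83. The gene also held intronic CAC peaks with 5.64 and 10.4 for CTCF and 3.39 and 5.92 for Rad21. A Lone CTCF peak of 10.4, the strongest of that class in any span, lay just beyond the gene over a UTR of Slc22a3. The strongest peaks were CAC sites at -43.4 kb for CTCF (18.7) and at -11.06 kb for Rad21 (11.4). The 2 nearest CAC peaks with a motif carried it on the same strand, with summits 83.1 kb apart.

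Serpinc1 (chr1:162908737-162933141, plus strand) encodes antithrombin, the main inhibitor of thrombin and of activated factor X in plasma. Its span had the fewest CTCF peaks, 7, of which 1 was Lone CTCF. A CNC peak with a fold enrichment of 2.70 had its summit at -0.181 kb. Another 3 CNC peaks lay inside the gene, of 2.63 at 2.36 kb, 2.84 at 8.59 kb and 3.06 at 8.97 kb, the last over an exon. They were followed at 10.99 kb by an exonic CAC peak with 11.2 for CTCF and 4.03 for Rad21, and, just before it, by a weak CAC peak with 2.75 and 2.66. The highest values for both proteins, 11.8 and 7.43, belonged to a CAC peak in Rc3h1 at -44.3 kb. The strongest CNC peak of all spans, 5.05 at 56.7 kb, was not at a clotting gene but within 1 kb of a TSS of Zbtb37. The nearest CAC peaks with a motif carried it on the same strand, and their summits were 205.9 kb apart.

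The gene or genes of 5 of the 8 spans lay between inward-pointing motifs, those of 2 between motifs of the same strand and that of 1 between outward-pointing motifs. With the pair of F7 and F10 counted once, these were 4, 2 and 1 of 7. Over 21235 autosomal genes that had such a peak on both sides, 28.0% lay between inward, 45.7% between same-strand and 26.3% between outward motifs. The distance between the summits was 104.4 kb in the median, from 44.3 to 205.9 kb, and 130.5 kb over all genes, with quartiles of 65.0 and 310.4 kb. So few spans do not allow a share to be told from that of all genes, and no loops were measured in these data.

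**Figure D5:**
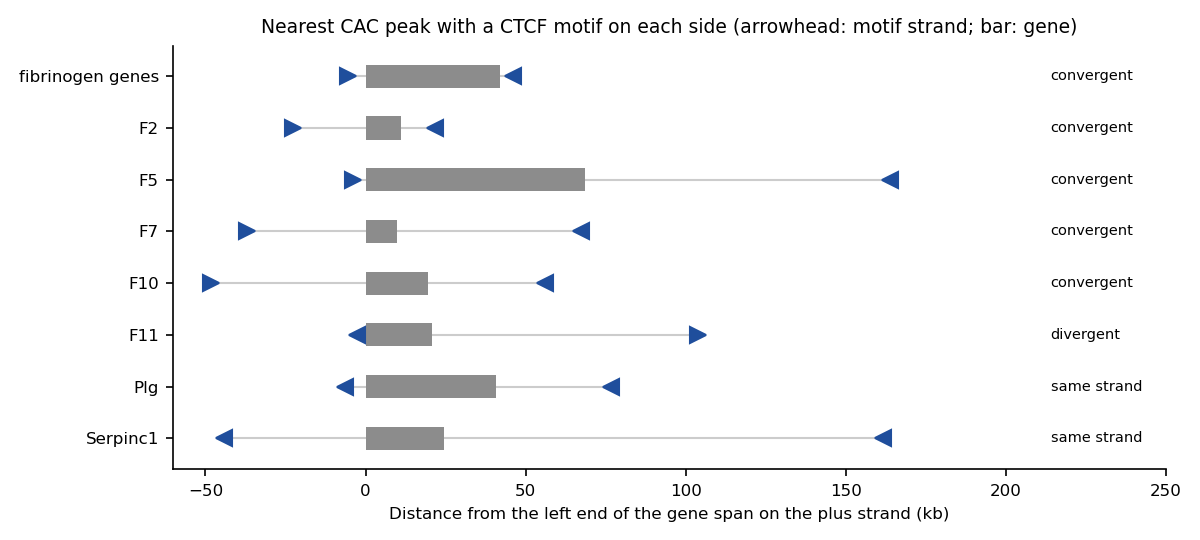
Nearest CAC peak with a CTCF motif on either side of each gene or of the fibrinogen genes, by distance from the left end on the plus strand (kb). Arrowheads give the strand of the motif and grey bars the transcribed region; the fibrinogen genes, F2, F5, F7 and F10 lie between inward arrowheads, with distances from 44.3 to 167.4 kb.

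CTCF motifs were called with a 20 bp matrix at a score passed by 1% of 23430 windows beside peaks. Among the 54 CTCF peaks classed as CAC, 19 had a motif within 100 bp of the summit (35.2%, Wilson interval 23.8 to 48.5%, against 47.1% of all autosomal peaks of the class), as had 9 of 28 Lone CTCF peaks (32.1%, 17.9 to 50.7%, against 41.6%). Both intervals include the autosomal share. The median fold enrichment of both classes was lower here than over all autosomes and was not matched. Of the 27 CNC peaks 1 had a motif (3.70%, 0.657 to 18.3%, against 2.84%), the one at 1.91 kb in Plg.

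Matches to the letters of liver factors were counted within 100 bp of the Rad21 summits. At CNC peaks, FOXA letters were found in 10 of 27 (37.0%, against 21.4% of all autosomal CNC peaks), C/EBP letters in 6 (22.2% against 12.9%) and HNF4A letters in 1 (3.70% against 3.22%). Any of the 3 was present in 14 peaks (51.9% against 33.4%). The Wilson intervals were 21.5 to 55.8% for FOXA, 10.6 to 40.8% for C/EBP and 34.0 to 69.3% for any, so that the autosomal share lay inside the interval for C/EBP and just below it for FOXA and for any. CAC peaks of the Rad21 list had any of them in 15 of 52 (28.8% against 22.7%), FOXA letters in 13 (25% against 14.9%) and C/EBP letters in 2 (3.85% against 8.11%). Within 50 bp of the summit, the share of CNC peaks with any match was 25.9% against 18.1%, with FOXA letters 18.5% against 11.1% and with C/EBP letters 7.41% against 6.54%, and the autosomal share lay inside each of these intervals. In the 150 bases before the 5′ ends, with positions of the first base counted back from the gene start, the C/EBP letters were found at Fga (-135), Fgb (-140), F11 (-17) and Serpinc1 (-19), beside 4.98% of all 21418 windows of this kind, and the FOXA letters at F11 (-25) and Plg (-88), beside 9.15%. HNF4A letters occurred in none of the 10 windows and in 0.812% of all. Fgg, F2, F5, F7 and F10 had no match. A match is a short string of letters and not evidence of a bound factor.

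A further 26 autosomal genes of clotting and fibrinolysis were taken by name. By median density and share at a TSS, they had fewer CNC peaks than the 10 genes and more than all genes. A CNC peak lay at a TSS in 7 of the 26 (26.9%), Klkb1, Hrg, Proc, Proz, Serpina10, Cpb2 and Ggcx, and in the span of 21. The median density of CNC peaks was 1.76 per 100 kb. Klkb1, the gene of plasma prekallikrein beside F11, had the most CNC peaks in its span, 7, and shares part of them with F11. The 5 CNC peaks in the span of Proz are those of F7 and F10, so the 26 genes and the 10 are not fully separate. F13a1, whose product crosslinks fibrin, had 1 CTCF and 1 Rad21 peak and no CNC peak. No CNC peak lay in the spans of F13b, Pros1, Plat and Plau either. None of the 26 spans was without a peak of both lists. CAC peaks at a TSS were found in 13 of the 26 genes, near the 50.7% of all genes. No expression values were used, and the part that expression in liver has in these differences was not tested.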

How the data were processed

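CTCF (4 libraries) and Rad21 (3 libraries) ChIP-seq was done on liver nuclei of female mice. The submitters' processing notes name Bowtie2, MACS2 and mm9. The authors pooled the libraries of each antibody, called peaks against background and deposited 1 list for each protein. Each deposited list gives, per peak, the fold enrichment (a ratio) at the summit, −log10 p-values and q-values, and an integer score. The authors' fold enrichment was the main measure, their −log10 q an alternative, and the deposited score and p-values were not used. Read depth is not in the lists and was not used here.

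Genes came from GENCODE vM1 on NCBIM37, the assembly of mm9, and sequences from its genome. A promoter table of another build was not used. Peaks were joined to genes by overlap of at least 1 bp, with 50 kb flanks and 1 kb around each TSS. Background values are over all autosomal protein-coding genes or peaks. The CTCF matrix (20 bp) was built from 910 sites in 1000 strong peaks and scored within 100 bp of summits, with a threshold of 13.7 bits that 1% of windows shifted 1 kb from the peaks passed. Overlap counting was tested on simulated data. Python 3.11.15, numpy 2.4.6, pandas 2.3.3, scipy 1.17.1, pysam 0.24.0, matplotlib 3.10.9 and samtools 1.23.1 were used.

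The genes and lists were chosen with earlier results of these data known. Named peaks were those in a gene, at its TSS, or with the highest value of each list in a span, and the nearest CAC peaks with a motif. Other peaks that are named were chosen after their values were seen. With 1 pooled list for each protein, no test between samples was possible. The alternatives were stricter peak thresholds, other flanks and TSS windows, other definitions of CAC, ranking by −log10 q, a looser motif threshold and narrower windows. The letters of another liver factor are not reported here.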

Additional observations from a re-analysis of the deposited data

How the results depend on the processing

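Of 60 alternative values for 20 results, 38 stayed within the set limits and 22 moved. With a minimum −log10 q of 10 in both lists before classing, the spans held 49 CTCF peaks (17 Lone CTCF) and 49 Rad21 peaks. A CNC peak was then found at the TSS of 3 genes and in 5 genes (7.66% and 13.7% of all genes). With a minimum fold enrichment of 5, applied to both lists before classing, there were 38 CTCF peaks, of which 18 (47.4%, 29.7% over all autosomes) were Lone CTCF, and 26 Rad21 peaks, of which 6 (23.1%, 16.2% over all) were CNC. No gene then had a Rad21 or CNC peak at a TSS (0 of each), 2 genes held a Rad21 peak and 1 a CNC peak, beside 31.9%, 6.02%, 46.2% and 10.4% of all genes in this order. With summits required to lie within 100 bp, Lone CTCF made up 51.2% and CNC 49.4%, beside 39.2% and 39.4% over all autosomes. At the looser motif threshold of 5%, 30 of 54 CAC peaks had a CTCF motif (55.6%, against 65.0% of all). Within 50 bp of CNC summits the HNF4A letters were found in 0%, C/EBP in 7.41%, FOXA in 18.5% and any of the 3 in 25.9%, beside 1.54%, 6.54%, 11.1% and 18.1% of all autosomal CNC peaks. Fewer peaks pass by construction in the stricter lists and narrower windows. No paired analysis was possible because both lists used here were called on pooled libraries; peaks of single libraries were not analysed here, and no replicate was left out. The depth of the pools sets how weak a peak can be called, and it was not used here, so a gene without a peak is one where none was detectable. Spans of neighbouring genes share peaks, and short letter matches occur by chance in any sequence.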

Other observations

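Some CTCF motifs in these spans were preceded by recurring letters. This search was chosen after the sequences were seen, so the shares below are not a test. The letters GTAGCTGTC within 30 bases before the motif were found at 3 of 9 Lone CTCF peaks with a motif (33.3%, against 7.85% of 7298 autosomal peaks of the class) and at 0 of 19 CAC peaks (0.640% of 23280). The Lone CTCF peaks were in an intron of Ckap5 near F2 (chr2:91435193-91435493, fold enrichment 5.91), in an intron of F5 (chr1:166127141-166127347, 3.85) and in an intron of Rc3h1 near Serpinc1 (chr1:162865789-162866006, 3.12). The letters GCAGTNCC were found at 2 of 19 CAC peaks (10.5%, against 5.16%), the strong sites in Zfp408 near F2 (15.7) and in Slc22a3 near Plg (17.3), and at 1 of 9 Lone CTCF peaks (11.1%, against 12.9%). Short interspersed repeats of the mouse genome are known to carry CTCF motifs. No repeat annotation was used, and these sequences were not assigned to repeats.

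Of 55 CAC pairs, the Rad21 percentile exceeded the CTCF percentile by more than 25 points in 12 (21.8%, beside 11.01% of 50615 autosomal pairs), and the CTCF percentile exceeded the Rad21 percentile by as much in 9 (16.4%, beside 9.49%). Their summits lay a median of 44 bp apart, with 40 pairs (72.7%) within 100 bp, and over all autosomal pairs the median was 35 bp and the share 80.5%.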
